A study of Mus musculus with 20 samples.

Results

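Iron leaves mammalian cells through 1 known exporter, ferroportin, which is the product of Slc40a1. Its transcript level is described here together with those of 7 other iron handling genes in mouse embryonic limbs with and without Lmx1b, the LIM homeodomain factor that gives limb mesenchyme its dorsal identity. The 8 genes (Slc40a1, Cp, Heph, Tfrc, Trf, Slc11a2, Hfe and Hmox1) were taken by their symbol from the 19936 genes measured, each through its probe set with the highest mean, and each had 1 probe set. They had been chosen with their levels in the 4 groups of limbs and their relation to the macrophage gene Csf1r already known, so both are given as a description, with no test.

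The study asked how loss of Lmx1b alters gene expression in the limb. Each array carried labelled cDNA of an individual limb, made from 300 ng of total RNA, of a 129Sv embryo at embryonic day 13.5. The 4 groups of 5 limbs were wild-type forelimbs, Lmx1b -/- forelimbs, wild-type hindlimbs and Lmx1b -/- hindlimbs, and each held 3 right and 2 left limbs. The mutants carry the null genotype in every tissue of the embryo, and whole limbs were extracted, so levels are averages over all cell types of the limb. Although titled as biological replicates, limbs of a group may share an embryo, which the labels leave unsaid. The p-values therefore rest on the scatter among these limbs, which may in part be technical.

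Ferroportin passes ferrous iron across the plasma membrane to the blood or tissue fluid, and it is abundant in macrophages that recycle iron from red cells. The ferroxidases ceruloplasmin (Cp) and hephaestin (Heph) oxidise the exported iron so that transferrin (Trf) can bind it, and cells take up loaded transferrin through the transferrin receptor (Tfrc). Iron is then carried out of the endosome by DMT1 (Slc11a2), is stored in ferritin, and is also released from haem by haem oxygenase (Hmox1), while the liver hormone hepcidin, which depends in part on HFE (Hfe), removes ferroportin from the cell surface.

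Levels are log2 of the deposited intensities, so a difference of 1 is a 2-fold difference, and replicates carry the number of their title. The targeted gene was checked first: Lmx1b was lower in mutants by 0.55 on the log2 scale (SE 0.0487, adjusted p = 2.63e-07, limma with Benjamini-Hochberg adjustment over 19936 genes), although its probe set still gave a mean of 5.72 in mutant forelimbs against 6.30 in wild-type forelimbs. The forelimb gene Tbx5 and the hindlimb genes Tbx4 and Pitx1 separated the 2 limb types as labelled. Over both limb types 406 genes passed an adjusted p of 0.05, 93 higher and 313 lower in mutants, and that split became 194 higher and 258 lower when each array was centred on its median. Arrays with a high Y-linked level, the mark of male embryos, numbered 5 of 5 in wild-type forelimbs, 2 of 5 in mutant forelimbs and 3 of 5 in each hindlimb group. In forelimbs that level was thus uneven between the genotypes. Hepatocyte markers, which would betray adhering liver, averaged between 4.10 and 4.26 in the 4 groups.

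Slc40a1 was lower in every mutant limb than in every wild-type limb. Its probe set, 10354374, read 7.48, 7.88, 8.05, 7.75 and 7.95 in wild-type forelimb replicates 1 to 5, and 6.83, 6.64, 7.19, 6.37 and 6.70 in mutant forelimb replicates 1 to 5. In hindlimb replicates 6 to 10 it read 7.85, 7.84, 7.68, 7.49 and 8.07 in wild type and 6.91, 6.90, 6.49, 6.58 and 6.48 in mutants. The highest mutant value, mutant forelimb replicate 3 at 7.19, lay below the lowest wild-type value, wild-type forelimb replicate 1 at 7.48. Group means were 7.82 ± 0.223 in wild-type forelimbs, 6.75 ± 0.299 in mutant forelimbs, 7.79 ± 0.218 in wild-type hindlimbs and 6.67 ± 0.218 in mutant hindlimbs (SD, n = 5 each).

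The difference between genotypes in Slc40a1 was -1.09 over both limb types (SE 0.0977), which is a 2.13-fold lower intensity in mutants. It was -1.08 in forelimbs and -1.11 in hindlimbs (SE 0.138 each), and the hindlimb difference minus the forelimb difference was -0.04 (SE 0.195), well inside its error. Wild-type hindlimbs and forelimbs lay together, with a difference of -0.04 (SE 0.138). In order of level the groups ran wild-type forelimb, wild-type hindlimb, mutant forelimb and mutant hindlimb, and neighbours in that order differed beyond their spread only across the genotypes. For all 10 mutant limbs to lie below the wild-type limbs of their limb type was seen in 54 of 19936 genes, 0.271%, and for all 10 to lie beyond them in 1 direction or the other in 61 genes, 0.306%. Leaving out any 1 array kept the difference over both limb types between -1.15 and -1.05, and the arrays with a high Y-linked level gave -1.03 alone.

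**Figure D1:**
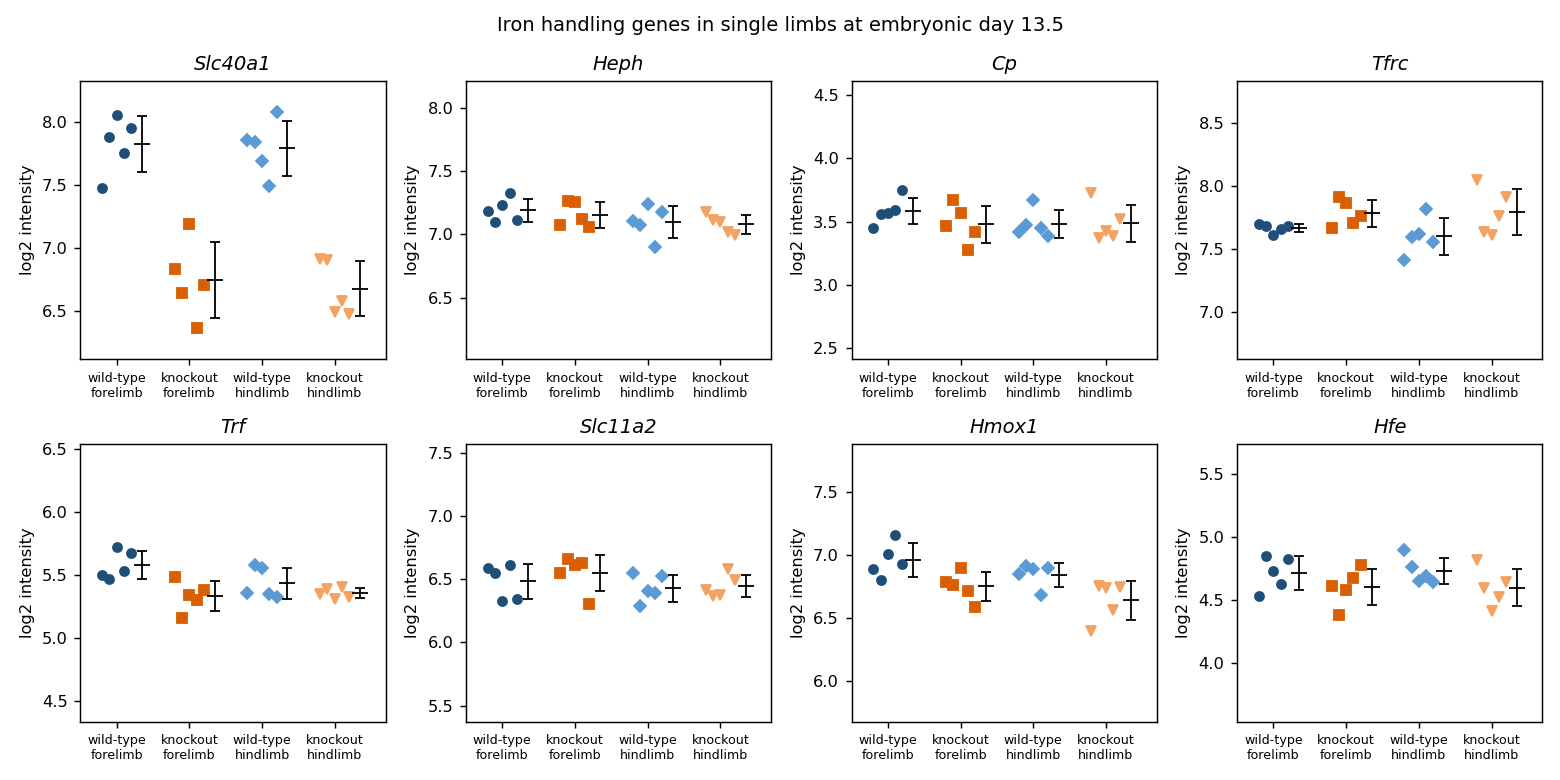
Log2 intensity of the 8 iron handling genes, 1 panel a gene, with 1 point for each limb (5 in each of the 4 groups) and a bar for the group mean; all panels span the same 2.2 log2 units. Mutant and wild-type limbs separate for Slc40a1 (mutants 6.37 to 7.19, wild type 7.48 to 8.07) and overlap for the other 7 genes.

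The ferroxidases that work with ferroportin did not show its pattern. Heph, the membrane-bound ferroxidase, averaged 7.19 in wild-type and 7.15 in mutant forelimbs and 7.10 and 7.08 in the hindlimbs, with single limbs from 6.90 to 7.33. Its difference over both limb types was -0.03 (SE 0.0481), and 8 of 10 mutant limbs lay inside the wild-type range of their limb type. Cp, the plasma ferroxidase made chiefly by liver, averaged 3.58, 3.48, 3.48 and 3.49 in wild-type forelimbs, mutant forelimbs, wild-type hindlimbs and mutant hindlimbs, and all limbs lay between 3.28 and 3.75. Its difference of -0.05 (SE 0.0575) was under its error, and 4 mutant limbs lay below and 1 above the wild-type limbs of their type. All Cp values were below the array medians (4.84 to 4.99), which limits that reading.

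Among the uptake genes, Tfrc ran against Slc40a1 and by far less. It read 7.70, 7.68, 7.61, 7.66 and 7.68 in wild-type forelimbs and 7.67, 7.92, 7.86, 7.71 and 7.76 in mutant forelimbs. In the hindlimbs it read 7.42, 7.59, 7.62, 7.82 and 7.56 in wild type and 8.05, 7.64, 7.61, 7.76 and 7.91 in mutants. The wild-type forelimbs were the tightest set, within 0.033 (SD), and 4 mutant forelimbs but only 2 mutant hindlimbs lay above the wild-type limbs of their type. The difference was 0.15 over both limb types (SE 0.0576), 0.11 in forelimbs and 0.19 in hindlimbs (SE 0.0815 each).

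Trf, which encodes the iron carrier transferrin, was lower in mutant forelimbs. It read 5.50, 5.47, 5.72, 5.54 and 5.67 in wild-type forelimbs and 5.48, 5.16, 5.34, 5.30 and 5.38 in mutant forelimbs. In the hindlimbs it read 5.36, 5.58, 5.55, 5.35 and 5.32 in wild type and 5.35, 5.39, 5.31, 5.41 and 5.33 in mutants. Mutant forelimb replicates 2 to 5 lay below all wild-type forelimbs and replicate 1 did not, while in the hindlimbs only mutant replicate 8, at 5.31, lay below the wild-type limbs. The difference was -0.25 in forelimbs and -0.08 in hindlimbs (SE 0.0699 each), and wild-type hindlimbs were themselves 0.15 below wild-type forelimbs. Over both limb types it was -0.16 (SE 0.0494), but -0.09 with the macrophage or the muscle mean as a covariate and -0.06 among arrays with a high Y-linked level. In forelimbs it was -0.14, -0.13 and -0.15 in those settings, and in hindlimbs the arrays with a high Y-linked level gave 0.04.

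Slc11a2, whose product DMT1 carries ferrous iron into the cytosol, showed differences of 0.07 in forelimbs and 0.02 in hindlimbs (SE 0.0778 each). Its single limbs ran from 6.29 to 6.66, and 5 of the 10 mutant limbs lay within the wild-type range of their limb type. Hfe, the gene mutated in the common human iron overload disorder, averaged 4.71 in wild-type and 4.60 in mutant forelimbs and 4.73 and 4.60 in the hindlimbs. Its difference was -0.12 (SE 0.0591), and 4 of 10 mutant limbs lay below the wild-type limbs of their type. Hfe values, at 4.38 to 4.89, were low beside the array medians (4.84 to 4.99), which limits that reading.

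Hmox1, which encodes the inducible haem oxygenase, had the second most negative difference of the 8 genes over both limb types and in hindlimbs, while in forelimbs that of Trf was more negative. It read 6.89, 6.80, 7.01, 7.16 and 6.93 in wild-type forelimbs and 6.79, 6.77, 6.90, 6.72 and 6.59 in mutant forelimbs. In the hindlimbs it read 6.85, 6.91, 6.89, 6.68 and 6.90 in wild type and 6.40, 6.75, 6.74, 6.57 and 6.74 in mutants. The genotypes overlapped in both limb types, with 6 of 10 mutant limbs below the wild-type limbs of their type, and in the hindlimbs the overlap came from wild-type replicate 9 at 6.68. The difference was -0.21 over both limb types (SE 0.0565), -0.21 in forelimbs and -0.20 in hindlimbs (SE 0.0799 each). Over both limb types it was -0.13 with the macrophage mean and -0.10 with the muscle mean as a covariate, and in forelimbs -0.10 and -0.03, against -0.12 there with the erythroid mean.

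**Figure D2:**
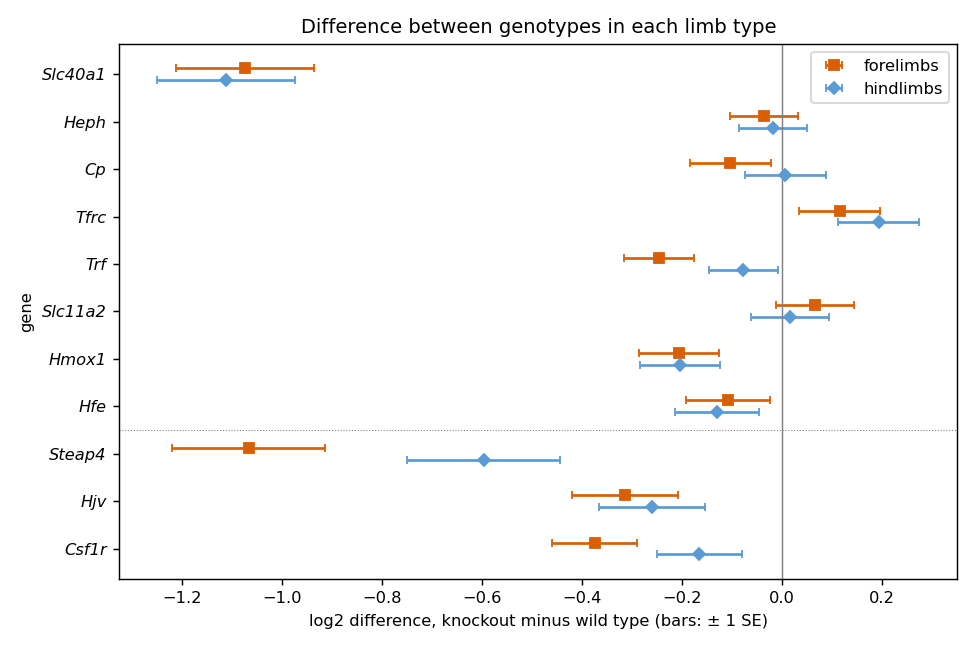
Log2 difference between mutant and wild-type limbs in forelimbs and in hindlimbs for the 8 iron handling genes and, under the dotted line, Steap4, Hjv and Csf1r; points are fitted differences and bars are 1 SE either way. Slc40a1 stands at -1.08 and -1.11, while the other 7 iron handling genes lie between -0.25 and 0.19.

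Of the 8 genes, 6 were lower and 2 higher in mutants over both limb types, and their median difference was -0.08 against 0.00 over all genes. The 7 genes other than Slc40a1 lay between -0.21 and 0.15. An adjusted p under 0.05 was reached by 1 of the 8, Slc40a1, where 2.04% of all genes were called. The same 1 of 8 was called in forelimbs, where 1.27% of all genes were, and in hindlimbs, where 0.231% were. None of the 8 was called for the difference between limb types in wild type (3.26% of all genes) or for the difference in genotype effect between limb types (0.0201%). Since the genes were chosen on their levels in the 4 groups, nothing is read from any of these counts. In a tissue extract, fewer cells of a type and less RNA per cell cannot be told apart.

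Left and right limbs had no part in the choice of the genes and could be tested. No gene of the 8 passed, nor did any of the 19936 genes (0%; limma, with 1889 genes at an unadjusted p under 0.05). Slc40a1 was 0.14 lower in left limbs (difference -0.14, SE 0.0972, adjusted p = 0.672), and the other 7 genes lay between -0.07 and 0.04.

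The relation to Csf1r, the receptor that macrophages need for survival, was computed over the 20 arrays after the mean of each group was taken from its limbs. Slc40a1 followed Csf1r with a Pearson r of 0.615 and a Spearman rho of 0.586, and r was 0.711 without the 2 arrays farthest from the median of Csf1r. Leaving out 1 array at a time gave r from 0.527 to 0.769. Of the 19935 other genes, 780 (3.91%) had a higher r with Slc40a1 than Csf1r had, and the median r over all genes was -0.04. All of these values share the same arrays and RNA. With the mean of 24 macrophage markers in place of Csf1r, r was 0.815. The single markers gave r from -0.37 to 0.84 with a median of 0.567, and 21 of 24 were above 0.

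The other 7 genes followed Csf1r less. Hmox1, Trf, Cp and Heph had r of 0.398, 0.379, 0.379 and 0.377. Slc11a2, Tfrc and Hfe had r of -0.29, -0.25 and -0.13. Slc40a1 also followed the mean of 15 endothelial markers (r = 0.70) and 16 skeletal muscle markers (r = 0.526), and ran against 12 erythroid markers (r = -0.37). Among the 28 pairs of iron handling genes r ran from -0.61, between Trf and Slc11a2, to 0.585, between Tfrc and Cp, with a median of 0.0749, so the 8 genes did not rise and fall as a set from limb to limb. Slc40a1 was also the most variable of them within groups, with a pooled SD of 0.242 where the others had 0.101 to 0.134.

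Of the 24 macrophage markers 2 passed over both limb types, both lower in mutants, where 2.04% of all genes were called, and 21 of 24 were lower, with a median marker difference of -0.13. Csf1r fell by 0.27 over both limb types (SE 0.0598, adjusted p = 0.0174, limma), from 5.84 to 5.46 in forelimbs and from 5.45 to 5.28 in hindlimbs. Mrc1, the macrophage mannose receptor, also fell, by 0.43 (adjusted p = 0.00904). In forelimbs the same number, 2 of 24, passed, where 1.27% of all genes were called, and 12 had an unadjusted p under 0.05 (limma). In hindlimbs none passed by limma, where 0.231% of all genes were called, and 1 had an unadjusted p under 0.05. The Slc40a1 difference was -1.11 there against -1.08 in forelimbs. The markers with the highest means, Dab2, Cx3cr1 and Ctss, differed by 0.08, -0.14 and -0.07 and did not pass.

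The levels of the macrophage markers and of Slc40a1 differed in their order across groups. The mean of the 24 markers was 5.44 (range 5.25 to 5.53) in wild-type forelimbs, 5.23 (5.11 to 5.42) in mutant forelimbs, 5.18 (5.09 to 5.26) in wild-type hindlimbs and 5.09 (5.03 to 5.14) in mutant hindlimbs. The wild-type hindlimb mean for the markers was below that of mutant forelimbs, while for Slc40a1 the same groups read 7.79 against 6.75. Between the wild-type limb types 5 of 24 markers were called, all lower in hindlimbs, where 2.49% of all genes were called lower. Slc40a1 differed by -0.04 there. With the macrophage mean as a covariate the Slc40a1 difference was -0.78 over both limb types (SE 0.0827), -0.64 in forelimbs (SE 0.116) and -0.92 in hindlimbs (SE 0.0938), so the forelimb value was over 1.5 times smaller than without it. The same covariate turned the difference between wild-type limb types to 0.50 (SE 0.129). The marker means of those limb types hardly overlapped, so the covariate can hardly be told apart from limb type. Nothing is read from that value.

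Skeletal muscle markers moved too. Of 16, 4 were called lower in mutant forelimbs, where 1.03% of all genes were called lower. None was called in mutant hindlimbs (0.231% of all genes, limma), where 2 had an unadjusted p under 0.05. Their mean was 7.91 (range 7.65 to 8.10) in wild-type forelimbs, 7.53 (7.32 to 7.70) in mutant forelimbs, 7.19 (6.90 to 7.38) in wild-type hindlimbs and 7.14 (6.98 to 7.38) in mutant hindlimbs. Slc40a1 did not share that order. With that mean as a covariate the Slc40a1 difference was -0.94 over both limb types, -0.81 in forelimbs and -1.08 in hindlimbs. Of 12 erythroid markers 11 were lower over both limb types, with a median difference of -0.10, and none passed (limma, 3 at an unadjusted p under 0.05). The globin genes Hbb-y, Hba-x and Hbb-bh1 differed by -0.17, -0.32 and -0.55. Of 15 endothelial markers 13 were lower over both limb types and Tek and Emcn passed, where 2.04% of all genes were called. The range of the mean of the 15 was 6.47 to 6.72 in wild-type forelimbs and 6.33 to 6.63 in mutant forelimbs. It was 6.32 to 6.61 in wild-type hindlimbs and 6.31 to 6.54 in mutant hindlimbs. Of 6 Schwann cell markers all were lower over both limb types, with a median difference of -0.10. Of these, S100b passed (-0.28, adjusted p = 0.0256, limma), where 2.04% of all genes were called. None of the 6 passed in forelimbs (limma, 3 at an unadjusted p under 0.05) or in hindlimbs (1). Their mean ranged from 5.06 to 5.24, 4.80 to 5.09, 4.94 to 5.19 and 4.88 to 5.14 in the 4 groups in the same order, and their r with Slc40a1 was 0.272. Some markers of these lists read below the array medians (4.84 to 4.99) on every array, such as Ms4a7 (3.02 to 3.42), Rhag (3.19 to 3.98) and Cdh19 (3.28 to 4.22). The part of any of these cell types in the Slc40a1 difference was not tested. The covariates are marker means from the same arrays, and in forelimbs the macrophage and muscle means were themselves lower in mutants. Fits with them therefore cannot separate a change in cell share from a change of level within cells.

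**Figure D3:**
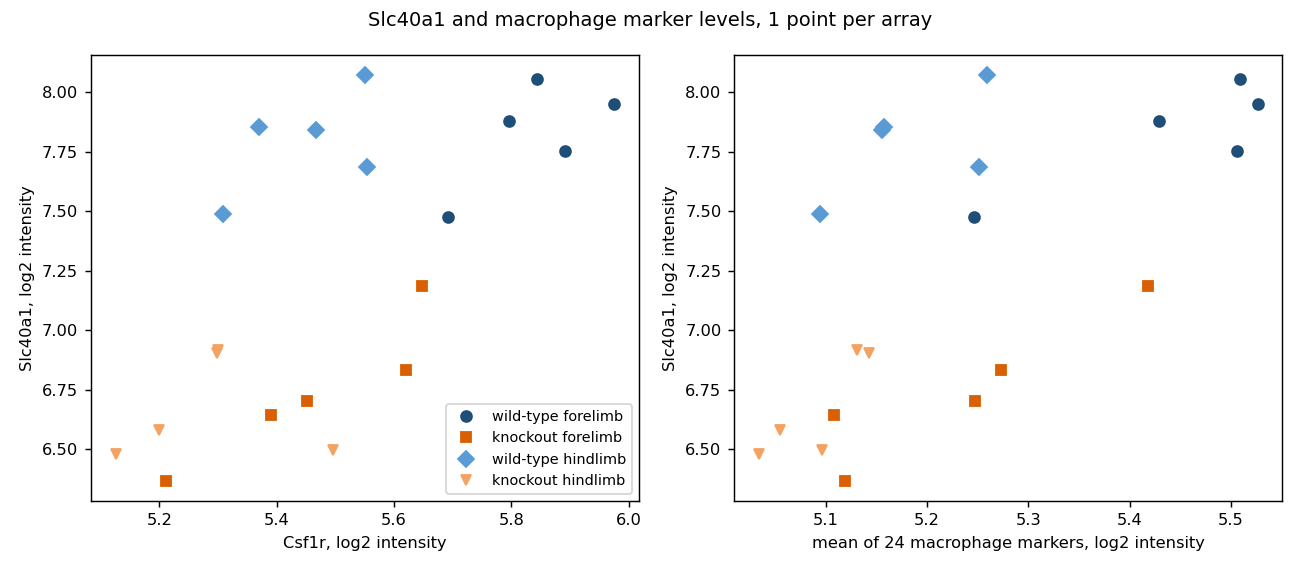
Slc40a1 (log2 intensity) against Csf1r in the left panel and against the mean of 24 macrophage markers in the right panel, 1 point per array with the 4 groups in their own colours and shapes. Wild-type hindlimbs share the marker range of the mutant groups but keep Slc40a1 between 7.49 and 8.07, where mutants lie between 6.37 and 7.19.

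The 8 genes whose deviations followed Slc40a1 most closely over the 20 arrays were Serpinb10 (r = 0.903), Krtdap (0.895), Arap1 (0.892), Psap (0.891), Acaa2 (0.888), Cavin1 (0.887), Anxa2 (0.887) and Cd44 (0.884). In all, 89 genes had an r over 0.8 with it, and none of these 8 is a marker on the macrophage list. Between genotypes Serpinb10, which encodes a protease inhibitor of the serpin family, passed with a difference of -1.15 (SE 0.299, adjusted p = 0.0478, limma). The other 7 did not pass, with differences from -0.58 for Krtdap, a gene of keratinocyte differentiation, to -0.08 for Acaa2, a mitochondrial thiolase. Differences far smaller than that of Slc40a1 were seen for Psap, the precursor of the lysosomal saposins (-0.13), and Cd44, a hyaluronan receptor (-0.10).

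For the other iron handling genes the closest were Olfr872 for Tfrc (r = 0.837), Ank1 for Trf (0.830), Zw10 for Slc11a2 (0.812), Wdr26 for Hmox1 (0.891), Col17a1 for Cp (0.865), Trim16 for Heph (0.828) and C2 for Hfe (0.807). The first of these, Olfr872, is an olfactory receptor gene, and C2 encodes a complement component. Both read below the array medians (4.84 to 4.99) on every array, Olfr872 at 1.96 to 2.33 and C2 at 3.52 to 4.11. These r values, like those for Slc40a1, are the highest among 19935 genes over 20 arrays. No shared expression is read from them.

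Slc40a1 lies on mouse chromosome 1, and its neighbours with a probe set were taken in RefSeq gene order (GRCm38.p6). The genes next to it, Wdr75 on one side and the pseudogene Stk-ps2 on the other, differed between genotypes by 0.00 (SE 0.0398) and 0.09 (SE 0.0922) and did not pass. Beyond Wdr75, 2 genes of fibrillar collagens passed. Col5a2 was lower by 0.44 in mutants (SE 0.0862, adjusted p = 0.00662) and Col3a1 by 0.37 (SE 0.0770, adjusted p = 0.00965, limma). In forelimbs they fell by 0.57 and 0.56 (adjusted p = 0.0176 and 0.00826), and in hindlimbs their values of -0.31 and -0.19 did not pass. The difference in genotype effect between limb types did not pass for either collagen (limma, adjusted p = 1.00 each, unadjusted p = 0.146 for Col5a2 and 0.0224 for Col3a1). On the far side of Stk-ps2, the dynein genes Dnah7b and Dnah7c differed by -0.26 and 0.02 and did not pass.

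The wider iron and haem lists held 73 other genes, of which 68 had a named probe set. Over both limb types 2 of the 68 passed, both lower in mutants, where 2.04% of all genes were called and 1.57% were called lower. Their differences split evenly, 34 lower and 34 higher, around a median of 0.00, which is also the median over all genes. In forelimbs 1 of 68 passed and was lower, where 1.27% of all genes were called and 1.03% were called lower. In hindlimbs none did, where 0.231% were called and 0.226% were called lower (limma, 4 of 68 at an unadjusted p under 0.05). Shares of this size are near those of all genes, so the lists as such did not stand apart.

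The gene of these lists with the largest difference was Steap4, a membrane metalloreductase that reduces ferric iron and cupric copper for uptake. It read 5.15, 5.82, 5.86, 5.68 and 6.15 in wild-type forelimbs and 4.72, 4.59, 4.83, 4.26 and 4.93 in mutant forelimbs. In the hindlimbs it read 5.18, 5.44, 4.91, 4.78 and 5.29 in wild type and 4.42, 4.60, 4.55, 4.39 and 4.65 in mutants. All 10 mutant limbs lay below the wild-type limbs of their type, as with Slc40a1, though wild-type hindlimb replicates 8 and 9 lay within the mutant forelimb range. Steap4 fell by 0.83 over both limb types (SE 0.108, adjusted p = 6.48e-05, limma), a 1.78-fold lower intensity, and by 1.07 in forelimbs (SE 0.153, adjusted p = 0.000388), while its hindlimb difference of -0.60 did not pass.

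Steap4 kept its call over both limb types in all 34 alternative fits (limma), with adjusted p up to 0.0285. In forelimbs it lost the call with the macrophage mean (adjusted p = 0.0971) or the muscle mean (0.0750) as a covariate. The same held among arrays with a high Y-linked level (0.118), where only 5 wild-type and 2 mutant forelimbs remained. Steap4 was also lower in wild-type hindlimbs than in wild-type forelimbs, by 0.61 (adjusted p = 0.0285), where Slc40a1 was not. The region before its start is shown because all 10 mutant limbs lay below the wild-type limbs of their type for Steap4, and it was searched for TAATTA, a core that LIM homeodomain factors bind. RefSeq places these 250 bases at chr5:7960222-7960471 on the plus strand of GRCm38.p6, and they end at the base before the start.

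Steap4: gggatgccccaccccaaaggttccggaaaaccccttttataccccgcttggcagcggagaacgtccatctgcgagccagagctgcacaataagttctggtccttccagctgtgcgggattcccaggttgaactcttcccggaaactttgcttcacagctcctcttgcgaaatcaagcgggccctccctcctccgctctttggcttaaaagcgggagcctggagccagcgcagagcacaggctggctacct

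No letters are in capitals because TAATTA, which reads the same on both strands, did not occur in it or in the 50 bases that follow. Windows of the same 300 bases were at hand for Tfrc, Cp and Hfe, and none of these held it either, so 0 of 6 windows of the 4 genes did. Of all 32851 RefSeq windows of this length 5.29% held it, so its absence from 6 is a statement about these letters and windows alone.

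The hepcidin pathway held the other called gene, Hjv, whose product hemojuvelin is a BMP co-receptor of liver and skeletal muscle. It read 6.63, 6.32, 6.94, 6.89 and 6.80 in wild-type forelimbs and 6.50, 6.45, 6.61, 6.21 and 6.23 in mutant forelimbs. In the hindlimbs it read 6.29, 6.34, 6.24, 6.25 and 6.43 in wild type and 5.84, 6.28, 5.96, 6.03 and 6.14 in mutants. The groups overlapped in both limb types, with 6 of 10 mutant limbs below the wild-type limbs of their type. Hjv fell by 0.29 over both limb types (SE 0.0744, adjusted p = 0.0464, limma). The call was lost in 15 of the 20 fits that left out 1 array, where adjusted p ranged from 0.00748 to 0.0961, and was kept without wild-type forelimb replicate 1 or 2, wild-type hindlimb replicate 9, mutant forelimb replicate 3 or mutant hindlimb replicate 7. Across all alternatives its adjusted p reached 0.619. Deviations of Hjv from group means followed those of the skeletal muscle mean (r = 0.778). In hindlimbs that mean was 7.19 in wild type and 7.14 in mutants, while 4 mutant limbs lay below the wild-type limbs for Hjv. The part of muscle in the Hjv difference was not tested.

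The remaining hepcidin genes did not pass. Of the 9 genes of that list tested besides Hfe, 7 were higher and 2 lower in mutants, and Hamp and Bmp6 differed by 0.07 and 0.05. Hamp read 2.45 to 3.47, below the array medians (4.84 to 4.99) on every array. The iron uptake list had Steap4 as its 1 called gene of 17, with a median difference of -0.03. On the same list Hp, whose product haptoglobin binds free haemoglobin, differed by -0.24 over both limb types (adjusted p = 0.0562) and passed in 4 alternative fits, for which it is named after its values were seen.

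Transcripts for the storage and sensing of iron inside cells showed small differences. Protein levels and activity were not measured. The ferritin subunit genes Fth1 and Ftl1 differed between genotypes by -0.03 (SE 0.0411, adjusted p = 0.767) and 0.01 (SE 0.0473, adjusted p = 0.956). Fth1 averaged 10.81 in wild-type and 10.75 in mutant forelimbs and 10.72 and 10.71 in hindlimbs. Aco1 and Ireb2 encode the iron regulatory proteins, which hold back translation of ferritin mRNA and stabilise Tfrc mRNA when iron is low, and they differed by 0.01 (SE 0.0353) and 0.04 (SE 0.0379). None of the 6 storage and chaperone genes or the 3 genes of the regulatory list passed or had an unadjusted p under 0.05 over both limb types.

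Of the haem genes none passed over both limb types by limma. In the breakdown and transport list 7 of 10 genes were lower and 1 had an unadjusted p under 0.05, and Hmox2, the constitutive haem oxygenase, differed by 0.03 (SE 0.0413, adjusted p = 0.756). In the haem synthesis and mitochondrial iron list 8 of 15 were lower and 2 had an unadjusted p under 0.05. Alas2, the erythroid first enzyme of haem synthesis, differed by -0.78 in forelimbs (SE 0.198, adjusted p = 0.0534) and -0.05 in hindlimbs. It passed in forelimbs under 7 of the other settings listed in the closing section and in 5 of the fits that left out 1 array, and it is named after its values were seen. The 12 erythroid markers averaged 5.84 (5.73 to 5.91) in wild-type and 5.60 (5.33 to 5.73) in mutant forelimbs, and 5.80 (5.62 to 5.92) in wild-type and 5.75 (5.57 to 5.997) in mutant hindlimbs. Of 7 genes regulated by NRF2 and BACH1, which also control Hmox1, none passed and 2 had an unadjusted p under 0.05, with a median difference of 0.02.

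**Figure D4:**
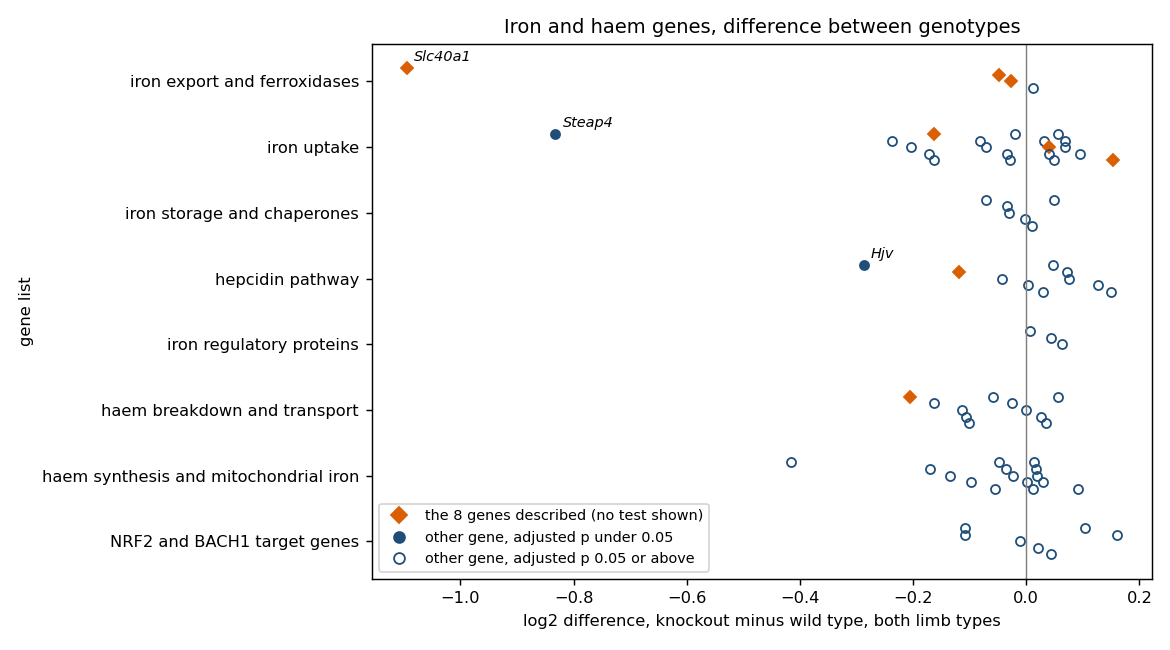
Log2 difference between mutant and wild-type limbs over both limb types for the genes of the 8 iron and haem lists, 1 row a list; diamonds are the 8 iron handling genes, filled circles other genes with an adjusted p under 0.05 and open circles the rest. Slc40a1 at -1.09, Steap4 at -0.83 and Hjv at -0.29 are named, and most other genes lie close to 0.

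Between the wild-type limb types 4 of the 68 genes passed, all lower in hindlimbs, where 3.26% of all genes were called and 2.49% were called lower. Besides Steap4, these were Hjv at -0.41 (adjusted p = 0.0354), Lrp1, an endocytic receptor that takes up haem bound to hemopexin, at -0.46 (0.0452), and Neo1, which encodes the hemojuvelin-binding receptor neogenin, at -0.27 (0.0439, limma). Each of these 4 calls depended on single arrays. That of Steap4 ended when any of wild-type forelimb replicates 2 to 5 or wild-type hindlimb replicates 6, 8 or 9 was left out (adjusted p up to 0.106), and that of Hjv with any of wild-type forelimb replicates 3 to 5 or wild-type hindlimb replicates 6 to 9 (up to 0.109). That of Lrp1 ended with any of wild-type forelimb replicates 3 to 5, wild-type hindlimb replicates 6, 7, 9 or 10 or mutant hindlimb replicates 8 to 10 (up to 0.140). That of Neo1 ended with any wild-type forelimb, wild-type hindlimb replicates 6, 7 or 9 or mutant hindlimb replicates 8 to 10 (up to 0.142). All 16 skeletal muscle markers were also called lower in wild-type hindlimbs, and with their mean as a covariate Hjv and Lrp1 changed sign. That mean did not overlap between the groups (7.65 to 8.10 in wild-type forelimbs, 6.90 to 7.38 in wild-type hindlimbs). The covariate can therefore hardly be told apart from limb type, and nothing is read from the changes of sign. Over all genes it cut the calls from 650 to 11. For the difference in genotype effect between limb types none of the 68 passed (limma, 3 at an unadjusted p under 0.05), and for left against right none did (11 at an unadjusted p under 0.05).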

How the data were processed

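Biotin-labelled cDNA of 20 single limbs was measured on Affymetrix ST arrays. The authors deposited 1 intensity per probe set and array, and the submitters' processing notes name RMA as the method. The deposited values are on a linear scale as the values show (array medians 28.6 to 31.8). The RMA software, the array annotation and the build were not given in the sources used here. Log2 was taken here with no pseudocount. Of 35512 probe sets, 21789 carried 1 gene symbol, with 21698 named through Entrez identifiers (RefSeq, GRCm38.p6), and the probe set with the highest mean stood for a gene, leaving 19936 genes. Probe sets with several symbols (1621) or none (12101) were left out.

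Comparisons came from 1 limma 3.58.1 fit (R 4.3.3) with 4 group means (lmFit, contrasts.fit, eBayes), Benjamini-Hochberg adjusted over all genes at 0.05, and side added for left against right. Data were simulated with known changes of 0.3, 0.6 and 1.2 on the log2 scale. The comparison over both limb types recovered 65.7%, 98.5% and 100% of changed genes, and 5.38% of its calls were false. At a change of 0.3, recovery was only 35.8% in forelimbs and 37.3% in hindlimbs. At 0.6 it was 92.5% in each. False calls made up 5% in forelimbs and 6.13% in hindlimbs. Whether these shares hold for the measured arrays was not tested. The number of arrays limits the precision. No 2 arrays held identical values. Correlations used deviations from group means and have no p.

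The genes, lists and tests were chosen with earlier results of these data known. The named genes are the 8 iron handling genes, list genes past the threshold (up to 6 a comparison), Fth1, Ftl1, Aco1, Ireb2 and Hmox2, the 3 nearest genes on each side of Slc40a1, the 8 genes most like it, up to 3 per other gene with r over 0.8, the 3 highest macrophage and erythroid markers, Lmx1b and Csf1r. Arrays with a high Y-linked level were added as an alternative after seeing the data.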

Additional observations from a re-analysis of the deposited data

Results flagged for a closer look

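In 48 groups of 5 limbs (the 8 iron handling genes and 4 others shown by limb), a single limb stood far from the rest in 2, by the ratio of its gap to the range of its group against a critical value of 0.71, and chance gives about 1 in 20. Hmox1 in wild-type hindlimb replicate 9 was 6.68 where the other 4 lay between 6.85 and 6.91. Cp in wild-type hindlimb replicate 8 was 3.67 where the other 4 lay between 3.39 and 3.47.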

How the results depend on the processing

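The Slc40a1 difference kept its direction in every setting tried: over both limb types it ran from -1.19 to -0.78, the latter with the macrophage mean as a covariate, in forelimbs from -1.23 to -0.64 (macrophage mean; -0.81 with the muscle mean), and in hindlimbs from -1.20 to -0.92. Its r with Csf1r was 0.527 to 0.769 leaving out 1 array, and 0.815 with the macrophage mean in its place. Of the 68 other iron and haem genes, 2 were called over both limb types. That count was 1 with array median centring, with the Y-linked, macrophage, erythroid or muscle level or side as a covariate, among arrays with a high Y-linked level, and at an adjusted p of 0.01, 3 with arrays of 1 genotype and description number as a random block (Hp besides Steap4 and Hjv), 2 in the remaining settings, and 1 to 2 leaving out 1 array. Hp also passed with the replicate block, where Hjv did not, and without mutant forelimb replicate 1 or 5. In forelimbs the count was 1, and it was 2 with that random block, with quantile normalization, for genes with a mean of at least 5, with the Y-linked level or side as a covariate and with forelimb arrays alone, where Alas2 joined Steap4. It was 0 with the macrophage or muscle covariate and among arrays with a high Y-linked level (5 wild-type and 2 mutant forelimbs). The count was 1 to 2 leaving out 1 array. In hindlimbs it was 0, and 1 with array weights. Between wild-type limb types it was 4, then 2 with the random block, the erythroid covariate or only the arrays compared, 0 with the Y-linked, macrophage or muscle covariate, among arrays with a high Y-linked level and at an adjusted p of 0.01, and 0 to 4 leaving out 1 array. It rose to 5 in other settings, such as array weights, where Nqo1 joined, higher in hindlimbs by 0.29 (adjusted p = 0.0447, limma). Nqo1 passed there in 6 alternative fits and is named after its values were seen. The muscle means of those limb types did not overlap, so that covariate can hardly be told apart from limb type there. There Hjv and Lrp1 changed sign with the muscle covariate (adjusted p = 1.00). Over both limb types Trf moved from -0.16 to -0.06 among arrays with a high Y-linked level, Hmox1 ran from -0.25 to -0.10 and Hfe from -0.19 to -0.06, and the small differences of Cp, Heph and Slc11a2 changed sign in some settings (-0.07 to 0.02, -0.05 to 0.03 and -0.05 to 0.07). The causes were not tested. Deviations of 10 same-numbered pairs of a wild-type and a mutant limb correlated from -0.31 to 0.256, and 4 were over 0.1. No pairs of unlike number were set beside them, so whether the title number pairs the limbs cannot be told from these values. With that number as a replicate block 3 forelimb genes were called (Alas2 and Id1 besides Steap4), and the other iron counts stayed within 1.5 times. Over all genes, counts for both limb types ran from 67 (arrays with a high Y-linked level) and 91 (macrophage covariate) to 768 (array weights), against 406, for forelimbs from 37 to 436 against 253, for hindlimbs from 13 to 82 against 46, and between wild-type limb types from 11 to 1260 against 650. Cp read below the array medians (4.84 to 4.99) on every array, which limits what can be read from it. Hamp did too (2.45 to 3.47), and Hfe also read low (4.38 to 4.89).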
